A study of Mus musculus with 12 samples.

Results

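The 10 genes described here encode transcription factors of the AP-1, EGR and ATF3 group, and they were read in RNA sequencing of a mouse dendritic cell (DC) line. They were chosen by name: the FOS genes Fos, Fosb and Fosl2, the JUN genes Jun, Junb and Jund, the EGR genes Egr1, Egr2 and Egr3, and Atf3. All 10 had a row among the 55401 genes of the count table. Of these, 8 passed the expression filter, 2 or more libraries with a log2 CPM over 0 (CPM, counts scaled by the TMM-normalized library total), and were tested among 14079 genes in all, while Fos and Fosb did not pass it.

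The cells were Sp37A3, a spleen-derived line of C57BL/6 origin with immature DC features, which was kept in medium with GM-CSF and M-CSF and used to ask what the inhibitory receptor Siglec-E does in DCs. CtrV cells carried the empty lentiviral vector and were labelled as expressing Siglec-E, and EKO cells had been edited at Siglece with CRISPR/Cas9 and were a pool of several single-cell clones. Cells of each line were either pulsed with the protein antigen ovalbumin (OVA) or left unpulsed, with 3 replicates in each of the 4 groups. By the labels, the cells of all 12 libraries received lipopolysaccharide (LPS), a bacterial ligand of Toll-like receptor signalling, followed by 24 h of processing. The methods of the study describe the sequencing of OVA-pulsed cells, so for the unpulsed groups the treatment rests on the labels alone. Cultures without LPS and earlier times were not analysed here, so neither the response of these genes to LPS nor its course is described. The methods name a single empty-vector line and a single edited pool, and a difference between the lines cannot be told apart from a difference between these 2 cell stocks. Nothing in the labels says whether the 3 replicates were separate cultures, so p-values measure the spread between these libraries, which may be technical.

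AP-1 is a dimer of basic leucine zipper proteins. JUN proteins pair with each other or with FOS proteins, whereas FOS proteins need a JUN partner, and the makeup of the dimer sets how strongly it activates. Most genes of the group are immediate early genes: mitogen-activated protein (MAP) kinases switch them on within minutes of a stimulus, without new protein synthesis, and their transcripts are usually short-lived. EGR proteins are zinc finger factors with the same kind of induction, and ATF3 is a stress-induced zipper protein known in myeloid cells as a brake on cytokine genes downstream of Toll-like receptors.

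Library totals lay between 27116201 and 39698572 counts (median 31290683.5), and 3 counts, taken as the smallest visible level, corresponded to between 0.0785 and 0.110 CPM, a limit from counting error alone. Siglece itself had between 150.2 and 163 CPM in CtrV libraries and between 166 and 235 CPM in the libraries labelled EKO. Its mRNA was thus not lower in the edited line and does not check the label, and these libraries are called EKO-labelled from here on. The paper reports that the clones it pooled had little or no expression of the Siglec-E receptor, which RNA levels do not measure. The first principal component held 83.8% of the variance and separated the lines. On the second, with 7.11%, the EKO-labelled libraries of replicate 1 lay apart at -18.8 and -20.5, against 1.15 to 18.3 for those of replicates 2 and 3. Of 14 DC markers, 13 exceeded 3 counts in at least 1 library, with a summed level between 24595 and 27016 CPM, and Clec9a did not exceed 3 counts. Most of this sum was Cd74, with group means of 15524 to 17264 CPM, so it says little about the other DC markers. Of 8 macrophage markers 7 were seen, with Mrc1 at no more than 3 counts, and their sum was 1642 to 1872 CPM in CtrV and 2375 to 2721 CPM in EKO-labelled libraries, a shift that moved with every line difference given below and whose part in them was not tested. Lists of T cell, B cell, fibroblast and neutrophil markers summed to no more than 1.57 CPM in any library.

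Levels of different genes were compared per kilobase of exon, counting all annotated exons of a gene together. This length was 9680 bases for Fosl2 and 6243 for Fosb, against 1668 for Jund. It can exceed the length of the transcripts present, which was not determined, and values per kilobase are then too low. Jund, the JUN member known for steady expression, had the highest level with a median of 84.0 CPM per kb over the 12 libraries and a range of 68.4 to 91.8, above every value of the other 9 genes. Junb followed with 32.6 (20.8 to 41.9), then Jun with 23.6 (17.6 to 28.4) and Atf3 with 20.9 (9.72 to 52.0), and the ranges of these 3 neighbours overlapped. Egr1 had a median of 7.76 CPM per kb (3.53 to 21.5) and Egr2 one of 5.04 (2.41 to 10.9). Fosl2 came next with 2.06 (0.998 to 3.21) and Egr3 with 1.15 (0.410 to 1.53). From Atf3 to Egr3, the range of each gene overlapped that of the next. Fos, with 0.114 CPM per kb (0.0222 to 0.365), and Fosb, with 0.0357 (0.00490 to 0.0649), lay below every value of the other 8 and overlapped each other. The JUN side of AP-1 was present at far higher mRNA levels than the FOS side in every group, which is a statement on transcripts and not on protein.

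**Figure D1:**
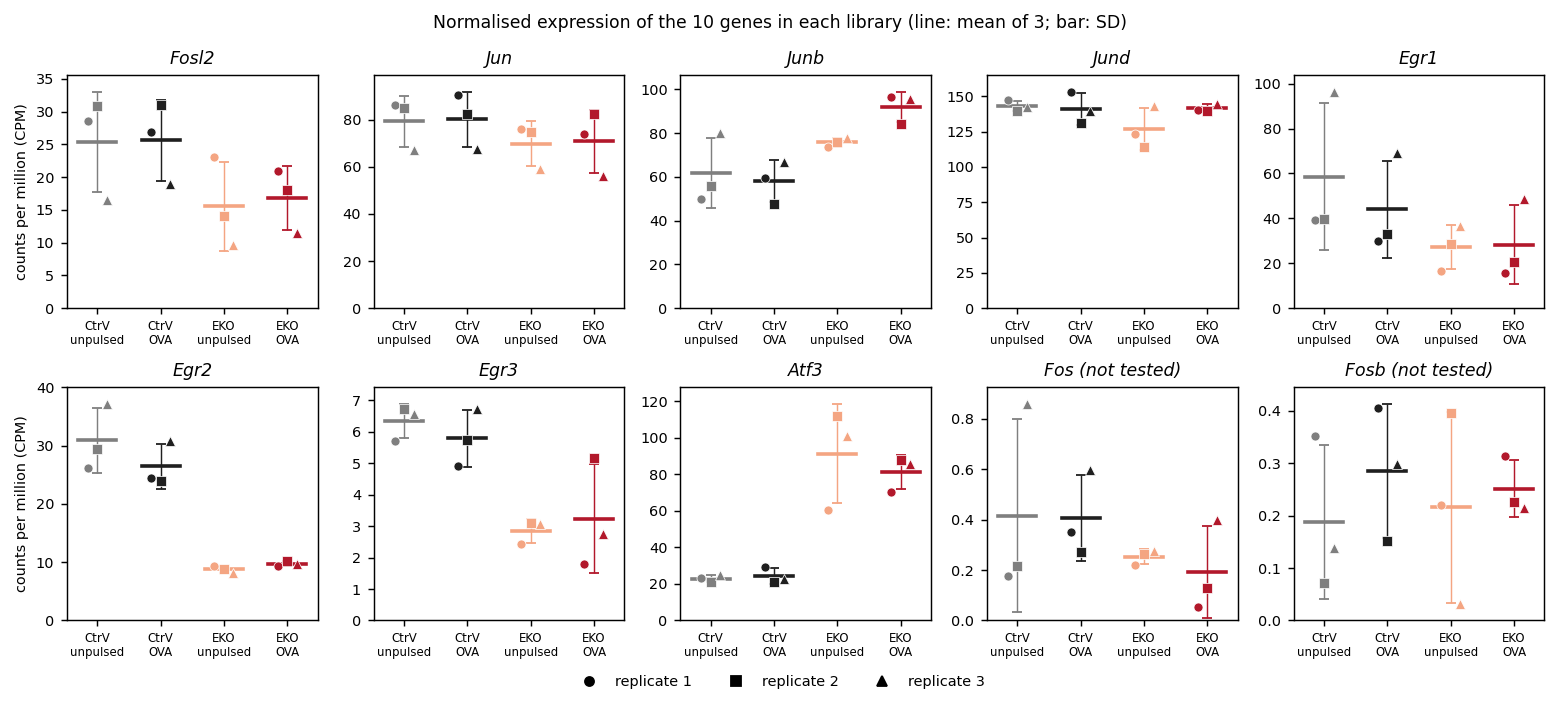
Each panel plots CPM (linear axis from 0) of 1 gene in the 12 libraries, 3 for each of the 4 groups, with marker shapes for the replicate number, a horizontal line for the mean and a bar for the SD. Egr2 lies between 24.0 and 37.1 CPM in CtrV and between 8.20 and 10.3 CPM in EKO-labelled libraries, and Atf3 between 20.9 and 29.5 against 60.5 and 112 CPM.

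RefSeq promoter windows (GRCm38.p6, from 250 bases before the transcription start to 50 after it) were used for 8 of the 10 genes, in 12 windows, and not for Egr1 and Egr3. They were searched on both strands for TGACGT (the core of the site that CREB and ATF proteins bind), TGANTCA (the AP-1 site), GCGNGGGCG (the EGR site) and the CArG box bound by SRF. The motifs were picked with the sequences known, none of them overlapped another in the windows shown, and a match is a description of letters. The windows below are those of the 2 genes that differed most between the lines, of Junb, which differed less, and of Fos, the classical immediate early gene, which was near the lower limit of detection here. Capitals mark matches to TGACGT, read on either strand, and in Egr2 also the CArG box.
Atf3, chr1:191183284-191183583, minus strand: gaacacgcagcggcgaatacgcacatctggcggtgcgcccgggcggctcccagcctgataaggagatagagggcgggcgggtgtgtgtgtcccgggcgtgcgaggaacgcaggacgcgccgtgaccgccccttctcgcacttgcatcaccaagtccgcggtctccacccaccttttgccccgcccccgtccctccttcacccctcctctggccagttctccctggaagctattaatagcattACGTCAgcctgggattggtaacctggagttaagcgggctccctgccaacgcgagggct
Egr2, chr10:67537619-67537918, plus strand: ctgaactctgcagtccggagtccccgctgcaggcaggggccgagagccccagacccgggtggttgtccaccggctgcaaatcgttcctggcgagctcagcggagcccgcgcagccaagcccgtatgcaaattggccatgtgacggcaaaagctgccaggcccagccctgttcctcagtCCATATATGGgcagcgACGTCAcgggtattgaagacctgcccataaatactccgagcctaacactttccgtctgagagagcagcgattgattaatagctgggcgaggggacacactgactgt
Junb, chr8:84978699-84978998, minus strand: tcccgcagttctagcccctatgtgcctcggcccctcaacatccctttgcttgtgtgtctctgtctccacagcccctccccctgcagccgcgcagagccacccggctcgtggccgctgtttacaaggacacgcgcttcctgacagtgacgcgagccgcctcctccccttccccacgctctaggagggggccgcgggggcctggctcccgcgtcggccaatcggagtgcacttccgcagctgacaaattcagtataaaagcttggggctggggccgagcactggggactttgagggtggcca
Fos, chr12:85473640-85473939, plus strand: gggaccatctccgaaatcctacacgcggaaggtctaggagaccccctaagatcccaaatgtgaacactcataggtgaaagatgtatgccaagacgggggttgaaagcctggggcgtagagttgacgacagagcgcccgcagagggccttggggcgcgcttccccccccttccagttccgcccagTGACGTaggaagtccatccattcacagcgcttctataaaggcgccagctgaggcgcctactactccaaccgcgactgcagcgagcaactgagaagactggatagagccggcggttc
TGACGT began 8 bases before the start in Atf3, 56 bases before it in Egr2 and 66 bases before it in Fos, and 7.51% of all 32851 windows held it. The CArG box of Egr2 began 72 bases before this start, 1 of 5 starts listed for the gene, and 1.63% of all windows held such a box. GCGNGGGCG was found in the windows of Fosl2 and Fosb and in 5.55% of all windows, while TGANTCA was found in none of the 12 and in 7.81% of all. Those of Jun, Jund and Junb held none of the 4.

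The line difference was first taken over the whole group. In OVA-pulsed cells 7 of the 8 tested genes differed between EKO-labelled and CtrV libraries (edgeR's quasi-likelihood test, adjusted p under 0.05), against 47.0% of all 14079 tested genes. Atf3 and Junb were higher, against 25.1% of all genes, and Fosl2, Jun, Egr1, Egr2 and Egr3 were lower, against 21.9%. In unpulsed cells 6 of 8 differed, against 46.4% of all, with Atf3 higher (24.5% of all) and the same 5 genes lower (21.9% of all). The median log2 fold change of the 8 genes was -0.40 with OVA and -0.45 without, beside 0.00 for all tested genes in each comparison. The libraries of the lines did not overlap for 3 of the 8 with OVA (52.9% of all), 2 with EKO-labelled above (27.0%) and 1 below (25.9%), and for 4 of the 8 without (47.1% of all), 1 above (24.1%) and 3 below (22.9%). Over the 6 libraries of each line together, Egr2 and Atf3 alone among the 8 did not overlap (35.6% of all, 18.9% with EKO-labelled above and 16.6% below). With close to every second gene differing between the lines, these counts describe the 8 genes and do not set them apart. Bulk RNA does not show whether fewer cells of the culture carried a transcript or each cell carried less of it. Without the replicate number in the fit, 4 of the 8 differed with OVA and 3 without, beside 5413 and 5337 of all 14079 genes.

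**Figure D2:**
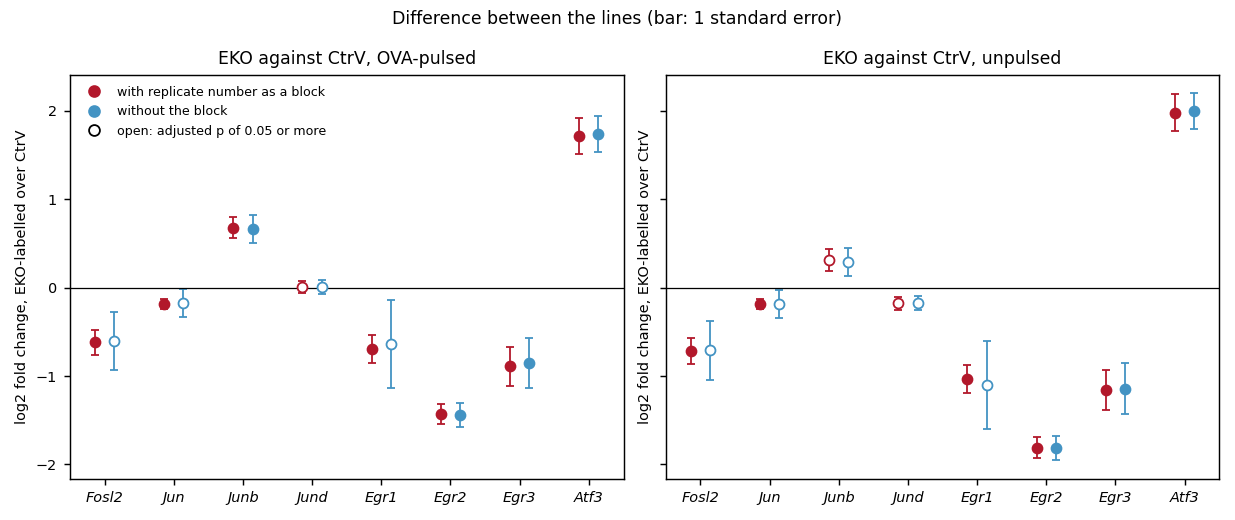
Log2 fold change of EKO-labelled over CtrV libraries for the 8 tested genes, with 1 standard error, in OVA-pulsed cells (left) and unpulsed cells (right), from the fit with the replicate number (red) and without it (blue). Filled points passed an adjusted p of 0.05. Egr2 reaches -1.43 and -1.81 and Atf3 1.72 and 1.98 in the fit with the replicate number, and the points of Fosl2, Jun and Egr1 are open without it.

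Gene positions are those of GRCm38, and counts cover the exons of each gene. Within the FOS family, Fosl2 (ENSMUSG00000029135, chr5:32135801-32157842, plus strand) was the member with a measurable level. It encodes FRA-2, which lacks the strong activation domain of FOS and binds DNA as a partner of JUN proteins. Unpulsed CtrV libraries had 28.6, 30.8 and 16.6 CPM in replicates 1, 2 and 3, and OVA-pulsed CtrV libraries 26.8, 31.1 and 18.9 CPM. EKO-labelled libraries had 23.0, 14.1 and 9.66 CPM when unpulsed and 21, 18.0 and 11.5 CPM when pulsed. In each group replicate 3 was the lowest, the groups overlapped, and in all 3 same-numbered pairs of either condition the EKO-labelled library was lower. EKO-labelled over CtrV, the log2 fold change was -0.62 (SE 0.14, adjusted p = 0.0048) with OVA and -0.72 (SE 0.15, adjusted p = 0.0024) without. Without the replicate number in the fit, no call remained (-0.60, adjusted p = 0.1711, and -0.71, adjusted p = 0.1170). The call with OVA was also lost without replicate 3 of all groups (-0.57, adjusted p = 0.0710).

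Fos (ENSMUSG00000021250, chr12:85473890-85477273, plus strand), the prototype of the family, had between 2 and 25 counts per library, or 0.0523 to 0.859 CPM. The values were 0.176, 0.215 and 0.859 CPM in unpulsed CtrV, 0.351, 0.272 and 0.597 CPM in OVA-pulsed CtrV, 0.220, 0.264 and 0.275 CPM in unpulsed EKO-labelled and 0.0523, 0.129 and 0.400 CPM in OVA-pulsed EKO-labelled libraries. Replicate 3 had the highest value of each group, and the lines overlapped in both conditions. Fosb (ENSMUSG00000003545, chr7:19302696-19310051, minus strand), whose product likewise pairs with JUN, had between 1 and 15 counts, or 0.0306 to 0.405 CPM, with overlapping lines. A difference in Fos or Fosb was not tested at this depth, 24 h after LPS.

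The JUN family was measured at high counts, from 1418 to 5665 per library. Jun (ENSMUSG00000052684, chr4:95049034-95052222, minus strand) encodes c-JUN, the activating member that JNK phosphorylates. CtrV libraries had 86.2, 84.8 and 67.0 CPM when unpulsed and 90.6, 82.3 and 67.4 CPM when pulsed. EKO-labelled libraries had 75.9, 74.7 and 58.9 CPM when unpulsed and 73.9, 82.4 and 56.2 CPM when pulsed. Replicate 3 was the lowest in each group and the lines overlapped. A log2 fold change of -0.18 was found in both conditions (SE 0.06 in each, adjusted p = 0.0241 with OVA and 0.0248 without). It lost its call without the replicate number (adjusted p = 0.4044 and 0.3961), with the 6 compared libraries alone (0.0613 and 0.0631) and without replicate 3 of all groups (0.1971 and 0.1197). Leaving out single libraries ended the call in 4 of 6 cases with OVA (replicates 1 and 3 of either line) and in 5 of 6 without (all but replicate 2 of CtrV). Of the exon bases of Jun, 7.28% overlapped the antisense gene Junos, which had 6 to 19 counts against at least 1829 for Jun.

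Junb (ENSMUSG00000052837, chr8:84974484-84978718, minus strand) encodes JUNB, a weaker activator than c-JUN that can hold c-JUN targets down and that partners with BATF in immune cells. It had 49.99, 55.8 and 80.1 CPM in unpulsed and 59.5, 47.8 and 66.8 CPM in OVA-pulsed CtrV libraries. EKO-labelled libraries had 73.8, 76.0 and 77.8 CPM when unpulsed and 96.4, 84.3 and 95.5 CPM when pulsed. With OVA every EKO-labelled library was above every CtrV library, and the log2 fold change was 0.68 (SE 0.12, adjusted p = 9.10e-04), or 1.598-fold. Without OVA the lines overlapped through replicate 3 of CtrV, and the value of 0.31 (SE 0.12, 95% interval 0.05 to 0.58, adjusted p = 0.0537) did not pass the threshold. It passed without that library (0.47, adjusted p = 0.0075), without replicate 3 of EKO-labelled cells (0.41, adjusted p = 0.0350), with DESeq2 (adjusted p = 0.0279) and with no expression filter (adjusted p = 0.0189). It was smaller and did not pass without replicate 1 of unpulsed CtrV cells (0.17, adjusted p = 0.2288), without replicate 2 of EKO-labelled cells (0.22, adjusted p = 0.2210) and without the replicate number (0.29, adjusted p = 0.1704). Whether the line difference depended on pulsing was tested directly and gave 0.36 on the log2 scale (SE 0.17, unadjusted p = 0.0553, adjusted p = 1.0000). That value was 0.20 without replicate 3 and 0.51 without replicate 1 of unpulsed CtrV cells. Prdx2 on the other strand shares 7.52% of the exon bases of Junb and had 2636 to 3847 counts, with mean levels of 96.7 to 102 CPM in the 4 groups. Strand use in counting is not stated, so reads of both cannot be told apart within that stretch.

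Jund (ENSMUSG00000071076, chr8:70698949-70700616, plus strand) encodes JUND, which in many cells slows growth. CtrV libraries had 147, 139.5 and 143 CPM when unpulsed and 153, 131 and 139 CPM when pulsed. EKO-labelled libraries had 123, 114 and 143 CPM when unpulsed and 140.5, 139.7 and 145 CPM when pulsed. The lines overlapped in both conditions. Its log2 fold change was 0.01 with OVA (SE 0.07, 95% interval -0.15 to 0.16, adjusted p = 0.9430) and -0.18 without (SE 0.07, 95% interval -0.33 to -0.02, adjusted p = 0.0572). Without OVA it passed the threshold when replicate 3 of EKO-labelled cells was left out (-0.27, adjusted p = 0.0081). Antisense Gm11175 overlaps 52.6% of the exon bases of Jund and had 11 to 36 counts, against at least 3357 for Jund.

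Since the JUN proteins compete for partners, their transcripts were also read as shares of the JUN total per kilobase. Junb made up 19.5% ± 4.57 (SD, n = 3) of it in unpulsed and 18.7% ± 2.698 in OVA-pulsed CtrV cells, and 25.2% ± 1.07 and 27.2% ± 1.87 in EKO-labelled cells. With OVA, shares of 25.04% to 28.5% in EKO-labelled libraries lay above shares of 16.6% to 21.7% in CtrV libraries. Jun made up 18.1% ± 2.82 and 18.6% ± 2.51 in CtrV, against 16.8% ± 2.99 and 15.1% ± 2.81 in EKO-labelled cells, with overlapping libraries. Jund had the rest, between 54.8% and 64.4% in every library. The JUN total was 138 ± 3.44 and 135 ± 10.6 CPM per kb in CtrV, and 131 ± 6.63 and 147 ± 1.91 in EKO-labelled cells, without and with OVA.

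**Figure D3:**
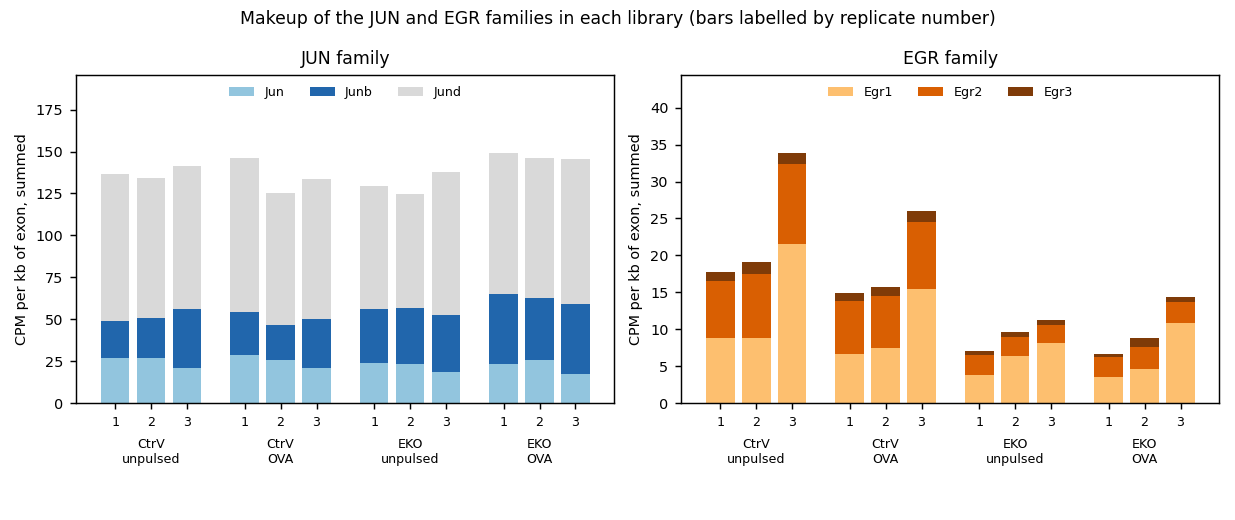
Stacked bars give CPM per kb of exon for the 3 JUN genes (left) and the 3 EGR genes (right) in each of the 12 libraries, grouped by line and pulsing and labelled by replicate number, on linear axes from 0. The JUN total stays between group means of 131 and 147 CPM per kb, whereas the EGR total has group means of 23.6 and 18.9 in CtrV and 9.31 and 9.92 in EKO-labelled cells.

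All 3 EGR genes were lower in EKO-labelled cells. Egr2 (ENSMUSG00000037868, chr10:67535475-67542188, plus strand), a factor known for holding back T cell activation and for a part in macrophage identity, fell most among the 8. Its values were 26.2, 29.4 and 37.1 CPM in unpulsed and 24.4, 24.0 and 30.9 CPM in OVA-pulsed CtrV libraries. EKO-labelled libraries had 9.31, 8.81 and 8.20 CPM when unpulsed and 9.34, 10.3 and 9.65 CPM when pulsed. Every EKO-labelled library was thus below every CtrV library, and the spread among the 6 was narrow. The log2 fold change was -1.43 with OVA (SE 0.11, adjusted p = 3.49e-06), or 2.696-fold lower, and -1.81 without (SE 0.12, adjusted p = 8.17e-07), or 3.504-fold lower. It stayed past the threshold under every alternative tried, with values of -1.51 to -1.34 with OVA and -1.92 to -1.67 without when 1 library was left out.

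Egr1 (ENSMUSG00000038418), the most rapidly induced EGR member and an activator of many early response genes, had 39.5, 39.8 and 96.3 CPM in unpulsed and 29.9, 33.2 and 69.0 CPM in OVA-pulsed CtrV libraries. EKO-labelled libraries had 16.8, 28.7 and 36.4 CPM when unpulsed and 15.8, 20.5 and 48.6 CPM when pulsed. Replicate 3 was the highest of every group, the lines overlapped with OVA and did not overlap without, and every same-numbered pair was lower in EKO-labelled cells. The log2 fold change was -0.69 (SE 0.16, adjusted p = 0.0041) with OVA and -1.03 (SE 0.16, adjusted p = 3.67e-04) without. Without the replicate number in the fit neither passed (-0.64, adjusted p = 0.3399, and -1.10, adjusted p = 0.1054), and without replicate 3 of all groups both did (-0.81, adjusted p = 0.0122, and -0.83, adjusted p = 0.0109).

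Egr3 (ENSMUSG00000033730, chr14:70077203-70082614, plus strand), which acts beside Egr2 in restraining lymphocyte activation, was the least abundant, with 66 to 203 counts per library. CtrV libraries had 5.71, 6.73 and 6.56 CPM when unpulsed and 4.92, 5.74 and 6.73 CPM when pulsed. EKO-labelled libraries had 2.42, 3.10 and 3.06 CPM when unpulsed and 1.80, 5.18 and 2.74 CPM when pulsed. The lines did not overlap without OVA, and with OVA replicate 2 of EKO-labelled cells lay inside the CtrV range. Its log2 fold change was -0.89 (SE 0.22, adjusted p = 0.0066) with OVA and -1.15 (SE 0.23, adjusted p = 0.0019) without. Leaving out that replicate 2 library moved the value with OVA to -1.34 (adjusted p = 3.55e-05), and leaving out replicate 3 of all groups ended the call there (-0.70, adjusted p = 0.1237). The summed EGR level per kilobase was 23.6 ± 8.95 without and 18.9 ± 6.15 CPM per kb (SD, n = 3) with OVA in CtrV, and 9.31 ± 2.12 and 9.92 ± 3.94 in EKO-labelled cells.

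Atf3 (ENSMUSG00000026628, chr1:191170296-191218039, minus strand) moved the other way. Unpulsed CtrV libraries had 23.0, 20.9 and 24.6 CPM and OVA-pulsed ones 29.5, 20.9 and 22.6 CPM. EKO-labelled libraries had 60.5, 112 and 101.1 CPM when unpulsed and 70.2, 87.6 and 85.6 CPM when pulsed. Every EKO-labelled library was above every CtrV library, and replicate 1, which lay apart on the second principal component, had the lowest EKO-labelled value in both conditions. The log2 fold change was 1.72 with OVA (SE 0.20, adjusted p = 5.88e-05), or 3.28-fold higher, and 1.98 without (SE 0.21, adjusted p = 2.55e-05), or 3.95-fold higher. Without replicate 1 of EKO-labelled cells the values were 1.92 (adjusted p = 7.24e-07) and 2.30 (adjusted p = 2.29e-07). Per kilobase, the ratio of Atf3 to Egr2 was 1.05 to 1.91 in the 6 CtrV libraries and 10.3 to 20.1 in the 6 EKO-labelled ones.

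Pulsing with OVA gave no call in either line, nor did the dependence of the line difference on pulsing. For each of these 3 comparisons edgeR and DESeq2 called 0 of the 8 genes and 0 of all 14079 (0% in edgeR). At an unadjusted p under 0.05, edgeR counted 1 of the 8 for the dependence (269 of all), 1 for pulsing in CtrV (231 of all) and 2 for pulsing in EKO-labelled cells (394 of all), while DESeq2 counted 2, 1 and 2 (103, 44 and 156 of all). In CtrV this was Egr1 with -0.39 on the log2 scale (SE 0.15, unadjusted p = 0.0278), which was lower with OVA in all 3 same-numbered pairs. In EKO-labelled cells these were Junb with 0.28 (SE 0.12, unadjusted p = 0.0407) and Jund with 0.16 (SE 0.07, unadjusted p = 0.0390), both higher with OVA in 3 of 3 pairs. For the dependence it was Egr2 with 0.38 (SE 0.16, unadjusted p = 0.0428): OVA-pulsed libraries were lower than their same-numbered unpulsed ones in 3 of 3 CtrV pairs, by 0.10, 0.29 and 0.27, and higher in 3 of 3 EKO-labelled pairs, by 0.0034, 0.22 and 0.24. The pairs are the same libraries that gave these p-values, so their directions add no further evidence. All adjusted p-values in these 3 comparisons were 0.9997 or more. The 2 line comparisons use different libraries but share the fit, the cell stocks and the replicate numbers. Same-numbered unpulsed and pulsed libraries deviated together in EKO-labelled cells (correlations of 0.71, 0.36 and 0.42 over all tested genes). In CtrV cells they did so less (0.09, 0.18 and 0.38). Neither comparison is thus an independent repeat of the other, and each gene's values have been given side by side above.

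The replicate number carried much of the spread of some of these genes. Replicate 3 deviated from the mean of its group by 0.85, 0.75, 0.49 and 0.95 on the log2 scale for Egr1, in unpulsed CtrV, OVA-pulsed CtrV, unpulsed EKO-labelled and OVA-pulsed EKO-labelled cells. For Fosl2 it deviated by -0.56, -0.40, -0.59 and -0.50 and for Jun by -0.23, -0.24, -0.24 and -0.31. Over all tested genes, 37.5% had replicate 3 on 1 side of the mean in all 4 groups, and the central 95% of mean deviations ran from -0.30 to 0.18. Egr1, at a mean of 0.76, exceeded all but 2 of the other tested genes, Fosl2 at -0.51 had 59 genes below it and Jun at -0.26 had 529. Junb, at 0.18, had 365 genes above it. Across the 12 libraries the deviations of Fosl2 and Egr1 had a Pearson correlation of -0.94 and those of Fosl2 and Jun one of 0.85, a description of libraries that share replicate numbers. What the replicate number stands for (a day, a passage, a handling step) is not given, and its part in these values was not tested. Egr2 and Atf3 had mean deviations of 0.10 and 0.08 for replicate 3, with 1384 and 2467 tested genes above them. These means hide opposite signs: Egr2 had 0.28 and 0.23 in unpulsed and OVA-pulsed CtrV, against -0.10 and -0.01 in EKO-labelled cells. Replicate 1 of Atf3 had 0.01 and 0.29 in CtrV, against -0.54 and -0.20 in EKO-labelled cells. The deviations of Egr2 and Atf3 had a correlation of -0.09. Their levels over the 12 libraries had one of -0.96, which reflects the 2 lines.

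**Figure D4:**
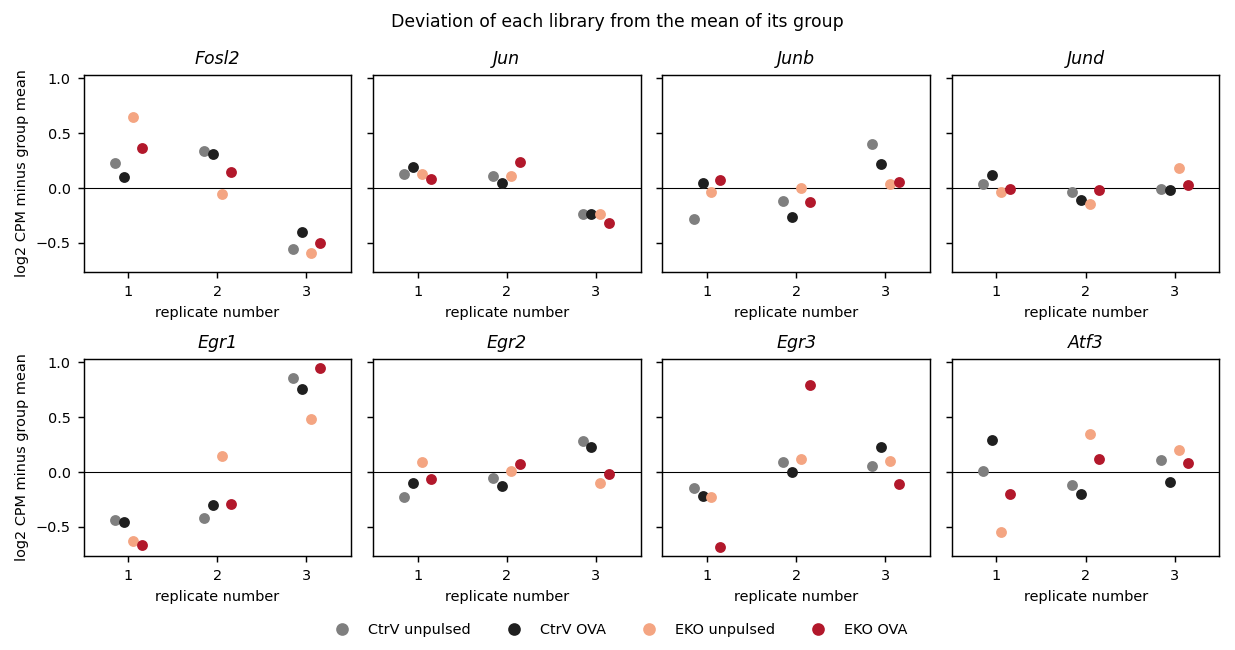
Each panel plots, for 1 tested gene, the deviation of each library's log2 CPM from the mean of its group against the replicate number, with 1 colour for each of the 4 groups. In replicate 3 all 4 groups lie above 0 for Egr1 (mean 0.76) and below 0 for Fosl2 (mean -0.51) and Jun (mean -0.26). For Egr2 and Atf3 the groups lie on both sides of 0 there, with means of 0.10 and 0.08.

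For each tested gene the 3 genes with the most similar log2 CPM over the 12 libraries were listed by Pearson correlation. A difference between the lines alone can make it high, and so can deviations shared by same-numbered libraries. Slc35a5, the first for Jun, had line differences of only -0.0550 with OVA and -0.0688 without. It was also the first for Jun by deviations from the group means (0.985). For Atf3 these were Gm7609 (0.996), Ifih1 and Sp110 (0.995 each), and for Egr2 Gm15470, Gm17709 and Clec2i, each at 0.99. Junb was most like Prrg2 and Ppp1r15a (0.95 each) and Neurl3 (0.94). Egr3 was most like Dolpp1 (0.97), Cysltr1 (0.96) and Tmem107 (0.96). Egr1 was closest to 1110059E24Rik and Phf5a (0.95 each) and Ranbp3 (0.94), Fosl2 to Zc3hav1l, Brd3 and Eya3 (0.98 each), and Jun to Slc35a5, Fbxo30 (0.98 each) and Fam219b (0.97). Jund had no gene above 0.855, the value of Pcbp1, with Ino80b and Scaf1 at 0.82.

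Other genes of the same pathways were read from 11 lists with 139 genes, 5 of them on more than 1 list. All counts refer to OVA-pulsed cells unless stated, are to be read against 25.1% of all genes higher and 21.9% lower, and give no test of a list. Genes are named as the largest rises and falls of a list among those with a mean log2 CPM of at least 0. Among further dimer partners of AP-1, 10 of 15 tested genes were higher and 0 lower (9 and 0 in unpulsed cells), with a median log2 fold change of 0.47. Batf2 and Batf3, partners of JUN proteins in DCs, had the largest rises: Batf2 rose from 0.432 ± 0.105 to 2.22 ± 0.102 CPM (SD, n = 3, log2 fold change 2.34, adjusted p = 7.29e-06) and Batf3 from 3.25 ± 1.17 to 10.5 ± 4.36 CPM (1.67, adjusted p = 7.49e-04). Batf2 and Maf, both among the 10, passed the expression filter through EKO-labelled libraries alone, so a rise was the direction open to them. The 5 that did not pass the threshold were Jdp2, Atf2, Atf4, Atf7 and Maff. Batf3 is also among the DC markers. Ddit3 was left out since 2 rows carry its symbol, and Fosl1 had at most 5 counts. Of 2 tested EGR partners 1 was lower. This was Nab2, a corepressor that EGR factors induce and bind, at 13.6 ± 2.39 against 23.3 ± 3.78 CPM (-0.78, adjusted p = 4.00e-05), while Nab1 had -0.06 (adjusted p = 0.290).

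Of 27 other immediate early genes tested, 16 were higher and 7 lower (14 and 7 in unpulsed cells), so the early genes as a list did not share 1 direction. The leading ones at the level set for naming were Nr4a3, an orphan nuclear receptor, and Gadd45b, a stress sensor upstream of p38 and JNK. Nr4a3 rose from 39.9 ± 29.3 to 159 ± 62.7 CPM (SD, n = 3, log2 fold change 2.10, adjusted p = 6.80e-04), with a wide spread in both lines. Gadd45b rose from 15.3 ± 6.84 to 57.3 ± 18.1 CPM (1.93, adjusted p = 1.04e-04). The largest falls were those of Klf4, a zinc finger factor of myeloid cells, from 1.75 to 0.625 CPM (-1.49, adjusted p = 9.20e-04), and Sik1, a kinase of the CREB pathway, from 8.04 to 3.01 CPM (-1.40, adjusted p = 2.45e-05). Klf4 passed the expression filter through CtrV libraries alone, so a fall was the direction open to it. Among CREB and related genes 3 of 7 were higher and 0 lower, led by Nfil3 (0.83, adjusted p = 2.13e-04) and Crtc2 (0.39, adjusted p = 5.30e-04). In unpulsed cells 2 of these 7 were higher and 2 lower.

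Upstream of the group, 2 of 13 MAP kinases and their direct activators were higher and 3 lower. Mapk13, which encodes p38 delta, was lower at 0.345 against 3.53 CPM (log2 fold change -3.31, adjusted p = 4.46e-06), and Mapk14, which encodes p38 alpha, at 141 against 211 CPM (-0.58, adjusted p = 6.84e-06). Mapk13 passed the expression filter through CtrV libraries alone, so a fall was the direction open to it. Map2k1, which encodes MEK1 of the ERK branch, was higher (0.42, adjusted p = 2.50e-05), as was Mapk9, which encodes JNK2 (0.13, adjusted p = 0.0479). Among upstream and downstream kinases 7 of 18 were higher and 3 lower, with Map3k8, which encodes TPL2 of Toll-like receptor signalling, at 22.9 against 13.96 CPM (0.72, adjusted p = 7.53e-05), and Map3k20 at 0.69 (adjusted p = 2.37e-05). Rps6ka4, which encodes the histone kinase MSK2, had -0.52 (adjusted p = 4.12e-04) and Rps6ka2 -0.44 (adjusted p = 7.91e-05).

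Among SRF, its cofactors and MEF2 factors, 3 of 9 were higher and 3 lower. Mef2c rose from 25.5 to 67.6 CPM (log2 fold change 1.40, adjusted p = 2.38e-07) and Mef2a from 90.3 to 157 CPM (0.79, adjusted p = 1.88e-05). The SRF cofactor Mrtfb fell (-0.67, adjusted p = 5.66e-04), as did Mef2d (-0.26, adjusted p = 0.0056). Of 7 ubiquitin ligases and related genes that act on JUN and FOS proteins, 2 were higher and 2 lower, with Itch, a ligase for c-JUN and JUNB, at -0.41 (adjusted p = 8.87e-05), Nedd4 at -0.28 (adjusted p = 0.0053), Det1 at 0.43 (adjusted p = 6.74e-04) and Cop1 at 0.34 (adjusted p = 0.0121).

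Proteins that bind AU-rich elements set the life of many early transcripts. On their list, which also holds other factors of RNA decay such as Zc3h12a, 4 of 10 tested genes were higher and 2 lower. Zc3h12a, which encodes the ribonuclease regnase-1, rose from 56.0 to 127 CPM (log2 fold change 1.18, adjusted p = 1.36e-06) and Zfp36, which encodes tristetraprolin, from 35.2 to 59.0 CPM (0.74, adjusted p = 0.0035), while its relative Zfp36l2 fell from 108 to 54.5 CPM (-0.98, adjusted p = 2.37e-06), as did Khsrp (-0.22, adjusted p = 0.0077). Of the integrated stress response, through which ATF4 is known to induce Atf3, 4 of 10 were higher and 0 lower (6 and 0 in unpulsed cells). Phgdh, an enzyme of serine synthesis, had 9.80 against 1.48 CPM (2.66, adjusted p = 7.49e-06) and the pseudokinase gene Trib3 27.7 against 10.4 CPM (1.36, adjusted p = 0.0055), and Atf4 itself had 0.32 (adjusted p = 0.140). Of 12 heat shock genes 7 were higher and 1 lower, with Hspa1a at 3.19 against 1.495 CPM (1.09, adjusted p = 1.42e-04), Hspa1b at 7.63 against 4.20 CPM (0.88, adjusted p = 2.59e-04) and the co-chaperone gene Bag3 lower (-0.19, adjusted p = 0.0331). No gene of the 11 lists differed between pulsed and unpulsed cells of either line in edgeR's test.

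**Figure D5:**
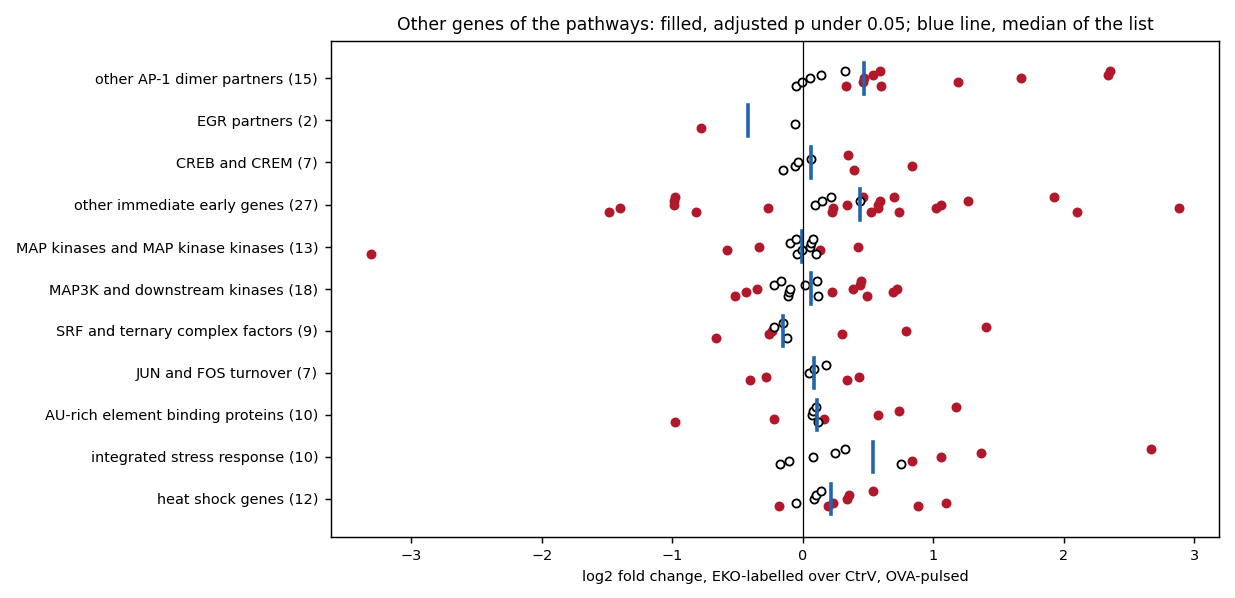
Log2 fold change of EKO-labelled over CtrV cells, OVA-pulsed, for the tested genes of the 11 lists (number of tested genes in brackets), with filled points at an adjusted p under 0.05 and a blue line at the median of each list. The further AP-1 partners have filled points to the right of 0 alone (10 of 15, median 0.47), whereas the other immediate early genes have 16 to the right and 7 to the left. Batf2 and Maf, among the 10, passed the expression filter through EKO-labelled libraries alone.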

How the data were processed

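RNA sequencing of Sp37A3 cells was used, 12 libraries in 4 groups of 3, grouped by the sample labels. The authors deposited raw read counts per gene. According to their methods and processing notes, reads were aligned to mm10 with STAR, handled with SAMtools and counted on exon unions with featureCounts, 1 location being reported for a read that matched several. Strand use and the limits of the test are not given in the sources used here. No column was left unused (0), and every row had a gene identifier. Symbols (14056 of the 14079 tested genes) and positions came from the GENCODE annotation of GRCm38, promoter windows from RefSeq.

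Counts were normalized by TMM and fitted with edgeR 4.0.16 in R 4.3.3 (quasi-likelihood test over all 12 libraries, group and replicate number as terms, as in the study's methods). Genes entered if 2 libraries or more had a log2 CPM over 0 (14079 of 55401), p-values were adjusted over them by Benjamini-Hochberg, and an adjusted p under 0.05 was called with no fold limit. Log2 CPM had a prior count of 3, and standard errors were derived from the F statistic. Steps were tested on simulated counts. Totals of 27116201 to 39698572 counts and a common dispersion of 0.00590 set the precision.

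Replicate numbers of the labels gave the pairing. Same-numbered OVA-pulsed libraries of the lines deviated together (correlations of 0.45, 0.30 and 0.30), the unpulsed ones less so (0.07, -0.01 and 0.27), so values without the replicate number are given where a call changed.

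The 10 genes, the pathway and marker lists, the tests and the alternatives were chosen with earlier results of these data known. Besides the 10 genes, the text names Siglece, the 2 largest rises and 2 largest falls called in OVA-pulsed cells within each list (at a mean log2 CPM of 0 or more), and the 3 genes most similar to each tested gene. Some genes were named after their values were seen. These are list genes that did not pass, were not tested or passed the filter through a single line. Genes that make up most of a marker sum or overlap a member on the other strand are also among them. Alternatives were DESeq2 1.42.0, RLE normalization, no expression filter, no replicate number, the compared libraries alone, each library left out, and replicate 1 of EKO-labelled cells left out. The newer quasi-likelihood fit of edgeR and leaving out replicate 3 of all groups were added after seeing the data.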

Additional observations from a re-analysis of the deposited data

How the results depend on the processing

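Of 556 recomputed values, 509 kept their direction and their side of the threshold (counts, within 1.5 times). They include the pulsing and dependence comparisons, where nothing was called and a kept side of the threshold therefore says little. The 23 values that lost a call all belong to the comparisons between the lines. Without the replicate block, 4 of the 8 tested genes were called in OVA-pulsed cells and 3 in unpulsed cells, Fosl2, Jun and Egr1 losing both calls (values in the report), while 5413 and 5337 of all genes were called against 6619 and 6537 with it. By their correlations between the lines, the numbers pair the OVA-pulsed libraries (0.45, 0.30 and 0.30 for replicates 1, 2 and 3). The unpulsed ones they pair in replicate 3 (0.27) and hardly in replicates 1 and 2 (0.07 and -0.01). The block changed no other call of the 8 genes. Leaving out 1 library gave 6 to 7 of the 8 genes and 5171 to 5973 of all genes with OVA, and 5 to 7 and 5364 to 6089 without. Without replicate 3 of all groups (added after seeing the data, with fewer samples) the OVA-pulsed comparison called 4403 genes and 4 of the 8, and the unpulsed one 4547 genes and 7 of the 8, Junb (0.50, adjusted p = 0.0177) and Jund (-0.27, adjusted p = 0.0252) being gained and Jun lost. The cause was not tested.

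Values near 0 changed sign. The OVA-pulsed line difference of Jund was -0.0067 with no filter, -0.0156 without replicate 3 of all groups and -0.0431 to 0.0703 when 1 library was left out (-0.0263, -0.0356 and -0.0431 where it reversed). In CtrV, the pulsing difference of Jund turned to 0.0066 and 0.0207 when 1 library was left out (range -0.0852 to 0.0207), and that of Junb to 0.0738 without replicate 3 of the unpulsed cells (range -0.2333 to 0.0738) and to 0.0154 without replicate 3 of all groups. In EKO-labelled cells the pulsing difference of Egr1 became 0.0484 without the replicate block, and 0.2123, 0.0257 and 0.0008 without single libraries (range -0.2507 to 0.2123). Egr2 and Atf3 in both conditions, Junb with OVA and Egr3 without OVA kept their calls under all alternatives run. Depth limits Fos and Fosb, with at most 25 and 15 counts per library.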
